A study of Mus musculus with 6 samples.

Results

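Cxcr6, Itga1, Rgs1, Cd69 and Hopx are genes associated with lymphocytes that stay in a tissue, and their levels were followed through the immune cells of metastasis-bearing mouse liver. These 5 genes were chosen by name among the 5301 features that the 3 expression matrices of the series list between them, and each matrix held all 5. The mice were Balb/c and received an intracardiac injection of 4T07 cells, a mouse mammary tumour line, which carried either a scramble control vector (Ctrl) or an shRNA knockdown of Tim3 (Tim3-KD). No alteration of the hosts is described, so the knockdown was in the tumour cells, and the sorted CD45+ cells cannot show how deep it was. The 6 single-cell RNA-seq libraries were adjacent tissue without tumour at day 3, micrometastasis at day 3 and macrometastasis at day 12, each from Ctrl and from Tim3-KD. The comparison asks what the immune cells look like where the tumour cells have less TIM3. Each library was a pool of a pair of mice and no group had a second library. No difference between groups was therefore tested, and every interval below is a 95% interval of counting error that does not cover the variation between mice.

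Lymphocytes of the liver are partly residents of its sinusoids and partly passengers that return to blood and lymph. Exit from a tissue depends on S1PR1, a receptor that senses sphingosine 1-phosphate and is transcribed under KLF2. CD69, an early activation receptor, binds S1PR1 and takes it off the cell surface. CXCR6 is the receptor of CXCL16, a chemokine displayed by the sinusoidal lining, and keeps NKT cells patrolling there. Itga1 encodes the alpha chain of the integrin VLA-1, which pairs with Itgb1 and binds collagen, and its protein CD49a is the usual mark that parts liver ILC1 from circulating NK cells. RGS1 shortens the signal of chemokine receptors by speeding the GTPase step of their G proteins. HOPX is a small homeodomain protein that does not bind DNA by itself.

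In GRCm38 Cxcr6 lay on chromosome 9 from 123806475 to 123811760 on the plus strand, and the other 4 genes lay on minus strands. Itga1 covered chromosome 13 from 114953096 to 115101964, Rgs1 chromosome 1 from 144242296 to 144249242 and Cd69 chromosome 6 from 129267325 to 129275436. Hopx covered chromosome 5 from 77086988 to 77115121.

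Cxcr6 and Hopx were the pair of member genes whose levels were most alike across the T and NK clusters described below, so the 250 bases before their starts are shown. Sequences are from RefSeq on GRCm38.p6 and are written 5′ to 3′ on the strand of the gene. They are Cxcr6 at chr9:123806227-123806476 on the plus strand and the alternative starts of Hopx at chr5:77095268-77095517 and chr5:77115124-77115373 on the minus strand. Capitals mark a match to the Runx motif.
Cxcr6: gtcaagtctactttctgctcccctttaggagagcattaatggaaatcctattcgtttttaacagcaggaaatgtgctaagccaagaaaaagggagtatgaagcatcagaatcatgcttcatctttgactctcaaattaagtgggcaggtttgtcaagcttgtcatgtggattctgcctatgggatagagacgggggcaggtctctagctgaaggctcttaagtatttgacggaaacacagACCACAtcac
Hopx, start 1: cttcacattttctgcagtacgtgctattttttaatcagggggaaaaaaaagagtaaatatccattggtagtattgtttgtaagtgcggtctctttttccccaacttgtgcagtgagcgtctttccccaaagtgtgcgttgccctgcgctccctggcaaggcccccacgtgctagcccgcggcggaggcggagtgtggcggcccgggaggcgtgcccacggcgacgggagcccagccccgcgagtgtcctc
Hopx, start 2: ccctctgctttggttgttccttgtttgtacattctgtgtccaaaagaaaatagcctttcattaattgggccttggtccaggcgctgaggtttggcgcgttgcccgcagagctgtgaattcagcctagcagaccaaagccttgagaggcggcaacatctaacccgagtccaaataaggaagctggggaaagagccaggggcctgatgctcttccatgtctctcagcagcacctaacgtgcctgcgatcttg
Motifs were searched on both strands by their letters: AP-1 (TGANTCA), Runx (TGTGGT), T-box (AGGTGTGA) and Ets (CCGGAA). The Cxcr6 window held 1 Runx match, 10 bases before the start, and no match to the others. Neither Hopx window held any of these letters. Over all 32851 promoter windows of this length, 14% held the Runx letters, 6.75% AP-1, 1.12% T-box and 12.0% Ets.

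The libraries held 542 to 5502 cells, with median UMIs per cell from 6300 to 10248, and any pair of libraries shared 0 to 11 barcodes. Levels are CPM, the UMIs of a gene per 1000000 UMIs of the same cells. The 3 sites had been scaled in separate matrices, so levels of different sites are set side by side without a comparison. T and NK cells made up 2735 of the 23008 cells. They were clustered without the member genes, so that no member helped to define the cells it is described in. Of the 13 T/NK clusters the largest, with 458 cells, was NKT-like: Cd3g was detected in 97.4% of its cells, Xcl1 in 78.4% and Il2rb in 92.6%. None of the NKT markers was among its 10 leading genes, and the name rests on 4 of them that were at least 2-fold higher than in other T and NK cells. Il2rb was also detected in 95.2% of the larger NK-like cluster and Cd3g in 98.4% of the CD8 T-like cluster. Other NKT markers were detected less often in the NKT-like cluster, with Cd160 in 32.3% of its cells. Zbtb16 was in 22.3% and Klrb1c in 7.61% of its 184 cells in the only matrix that held them. A cluster of 148 cells led by Cd7, Xcl1, Cd160 and Trdc could not be named, because ILC1 and NKT markers tied, and is called the Cd160 Xcl1 cluster. Its cells carried Ncr1 in 58.8% and Cd3e in 54.7%. A cluster of 64 cells led by Tmem176a, Tmem176b and Blk carried Trdc in 54.7%, and Ncr1 was not detected in it. A pair of clusters was naive-like, with Ccr7, Lef1, Tcf7 and S1pr1 among the leading genes of both. The larger, of 429 cells, carried Cd4 in 39.9%, and the smaller, of 239 cells, carried Cd8b1 in 51.9% and Cd4 in 7.11%, so that they are called naive-like without a CD4 or CD8 lineage. Clusters of 149, 18 and 15 cells were led by genes of B cells, neutrophils and endothelial cells. All of these names were rebuilt from markers, and the study's own classes may differ from them. Where levels are paired in the text below, the Ctrl library comes first, then Tim3-KD.

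Only Cxcr6 was close to restricted to lymphocytes. T and NK cells held 95.4% to 99% of its UMIs in the 6 libraries. The B-like class, which should lack it, had 9 of 2292 cells with a UMI (0.393%), and 0 of 2292 after thinning, which allows up to 0.161% by the exact interval. The other 4 members also had UMIs in other classes, in varying shares. T and NK cells held 5.58% to 23.4% of Itga1, and endothelial-like cells showed its highest level, 400.4 to 659 CPM, with up to 80.8% of its UMIs in a library. They held 10.6% to 38.5% of Rgs1, against 30.3% to 68.5% in the Kupffer or macrophage-like class. Their share of Cd69 was 18.9% to 38.7%, with levels of 954.4 to 1242 CPM in the basophil or mast-like class, 430.3 to 744.5 in the pDC-like class and 299.2 to 351.4 in the B-like class. For Hopx the share ranged from 0.956% in micrometastasis Tim3-KD to 40.5% in adjacent tissue Tim3-KD, and monocyte-like cells reached 224.7 to 506.2 CPM. The label of the set as lymphocyte genes therefore held for Cxcr6 in this tissue, and the levels of all members are given within cell classes.

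**Figure D1:**
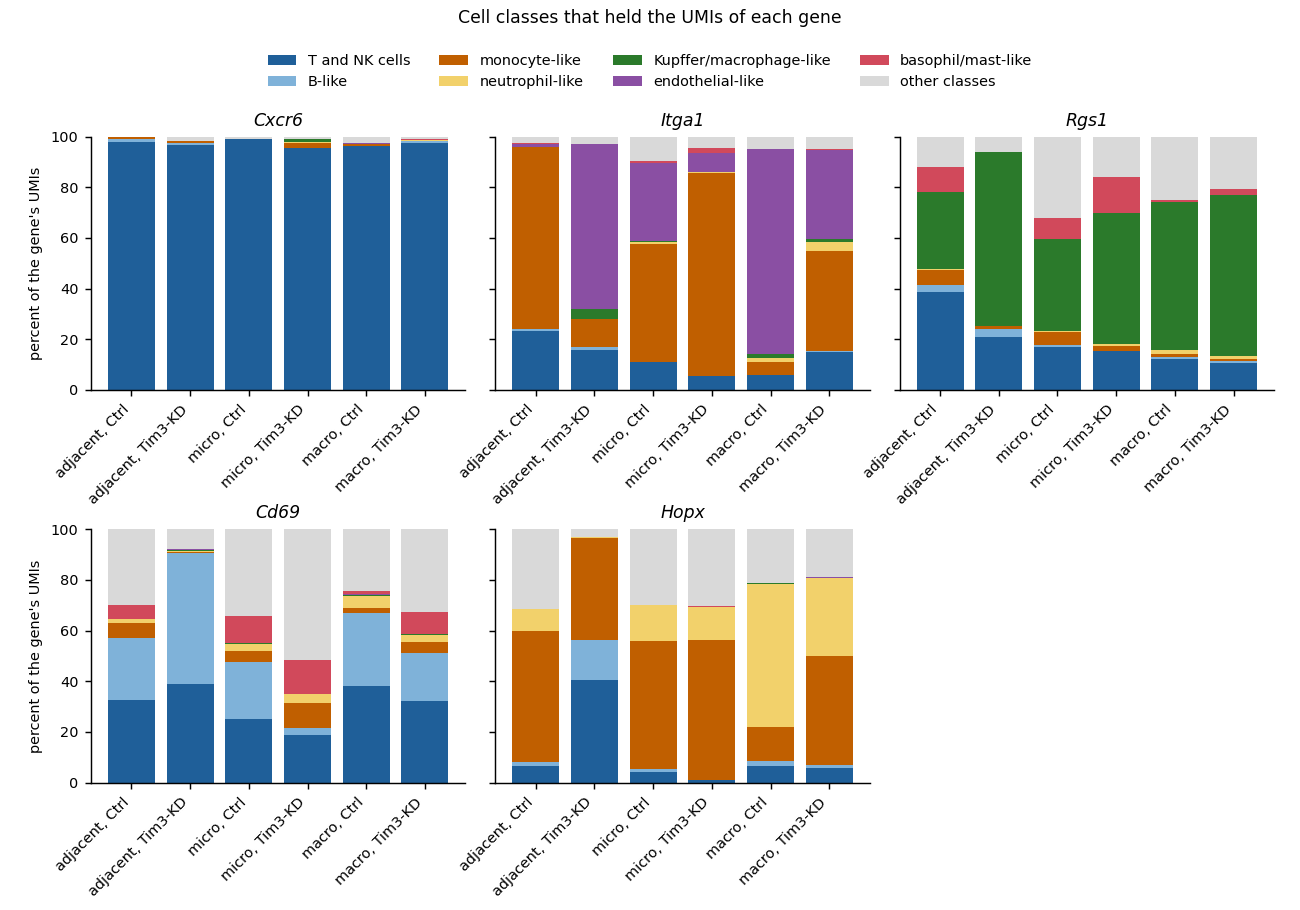
Share of each gene's UMIs by cell class (y axis, percent) in each of the 6 libraries (x axis). The T and NK part of the bar is over 95% for Cxcr6 in every library and at most 23.4% for Itga1 and 38.5% for Rgs1.

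Cxcr6, the chemokine receptor, was highest in the NKT-like cluster when libraries were pooled (447.6 CPM). Its levels there were 499 against 503.6 CPM in adjacent tissue, 446.7 against 247.6 CPM in micrometastasis and 500.7 against 477.9 CPM in macrometastasis, Ctrl first. Tim3-KD was lower than Ctrl within the micrometastasis pair, while the other pairs were close. The Cd160 Xcl1 cluster had 235.7 to 320.8 CPM over the 4 libraries with at least 20 of its cells, and the CD8 T-like cluster 224.0 to 400.8 over 4 libraries. In the Tmem176a Blk cluster, which reached 20 cells only in micrometastasis Ctrl, the level was 425.1 CPM. The ranges of the NKT-like and CD8 T-like clusters overlapped, so their order is not separated from the spread over libraries. In micrometastasis Tim3-KD the order was reversed, with 345.2 CPM in CD8 T-like and 247.6 in NKT-like cells. The regulatory or activated CD4 T-like cluster was lower, at 14.83 to 94.81 CPM. Pooled over libraries, naive-like clusters had 3.031 CPM and the NK-like clusters 3.951, against 0.926 in the B-like class.

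Itga1, the collagen receptor chain, followed another order. Within T and NK cells it was highest in the Cd160 Xcl1 cluster, at 344.0 CPM in adjacent tissue Ctrl, 113.8 CPM in micrometastasis Ctrl and 72.06 against 215.6 CPM in macrometastasis. The NKT-like cluster had 55.04 to 83.31 CPM, a narrow range over all 6 libraries that overlapped the lower end of the Cd160 Xcl1 cluster. CD8 T-like cells had 4.750 to 29.38 CPM. NK-like clusters had 6.420 CPM pooled, naive-like clusters 1.263, and the Tmem176a Blk cluster, where Cxcr6 was high, had 1 Itga1 UMI in 64 cells.

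Rgs1, the brake on chemokine receptor signals, was also highest among T and NK cells in the Cd160 Xcl1 cluster. Its levels were 3112 CPM in adjacent tissue Ctrl, 1707 CPM in micrometastasis Ctrl and 1657 against 1899 CPM in macrometastasis. These overlapped the 1145 to 2547 CPM of the Kupffer or macrophage-like class and the 1674 to 2295 of the basophil or mast-like class. NKT-like cells had 316.5 to 651.6 CPM, CD8 T-like cells 419.1 to 707.2 and regulatory or activated CD4 T-like cells 443.9 to 946.9, and these ranges overlapped. Unlike Cxcr6 and Itga1, Rgs1 was well detected in NK-like cells, at 359.8 to 1289 CPM. Naive-like cells had 47.22 to 213.6.

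Cd69, which removes S1PR1 from the surface, was detected in most T cell types. Levels in the NKT-like cluster were 697.3 against 440.3 CPM in adjacent tissue, 583.4 against 680.2 CPM in micrometastasis and 492.3 against 653.3 CPM in macrometastasis. The Cd160 Xcl1 cluster overlapped that range with 557.5 to 699.0 CPM. The Tmem176a Blk cluster was at 933.1 in micrometastasis Ctrl, the library in which it reached 20 cells. Pooled over libraries, its 64 cells had 585.0 CPM (507.5 to 671.0), which lay within the NKT-like range. Naive-like clusters still had 248.6 to 326.9 CPM, close to the B-like class, so a high Cd69 level was not particular to the cells with Cxcr6. The RNA of S1pr1, whose protein CD69 removes, had 5.64 CPM in NKT-like and 6.66 in Cd160 Xcl1 cells, against 277 in the larger naive-like cluster. It was also low, at 5.07 CPM, in the larger NK-like cluster, which was low in Cxcr6. In the Tmem176a Blk cluster it was 88.9 CPM, and in regulatory or activated CD4 T-like cells 219. Low S1pr1 RNA was thus not particular to the clusters with Cxcr6. Klf2, which drives S1pr1, was 266 CPM in NKT-like cells and 341 in the larger naive-like cluster. S1pr1 and Klf2 were among the genes used for clustering, and their levels are given as a description.

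Hopx in the NKT-like cluster stood at 268.0 against 244.9 CPM in adjacent tissue, 262.8 against 141.8 CPM in micrometastasis and 237.8 against 261.6 CPM in macrometastasis. As for Cxcr6, Tim3-KD was the lower library within the micrometastasis pair. The Cd160 Xcl1 cluster overlapped this range with 173.6 to 341.3 CPM. CD8 T-like cells were lower, at 47.50 to 102.8, and regulatory or activated CD4 T-like cells had 37.09 to 119.3. NK-like clusters had 13.90 to 58.08 CPM, a range that included the 23.03 to 33.98 of the B-like class, and the Kupffer or macrophage-like class had at most 5.241.

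**Figure D2:**
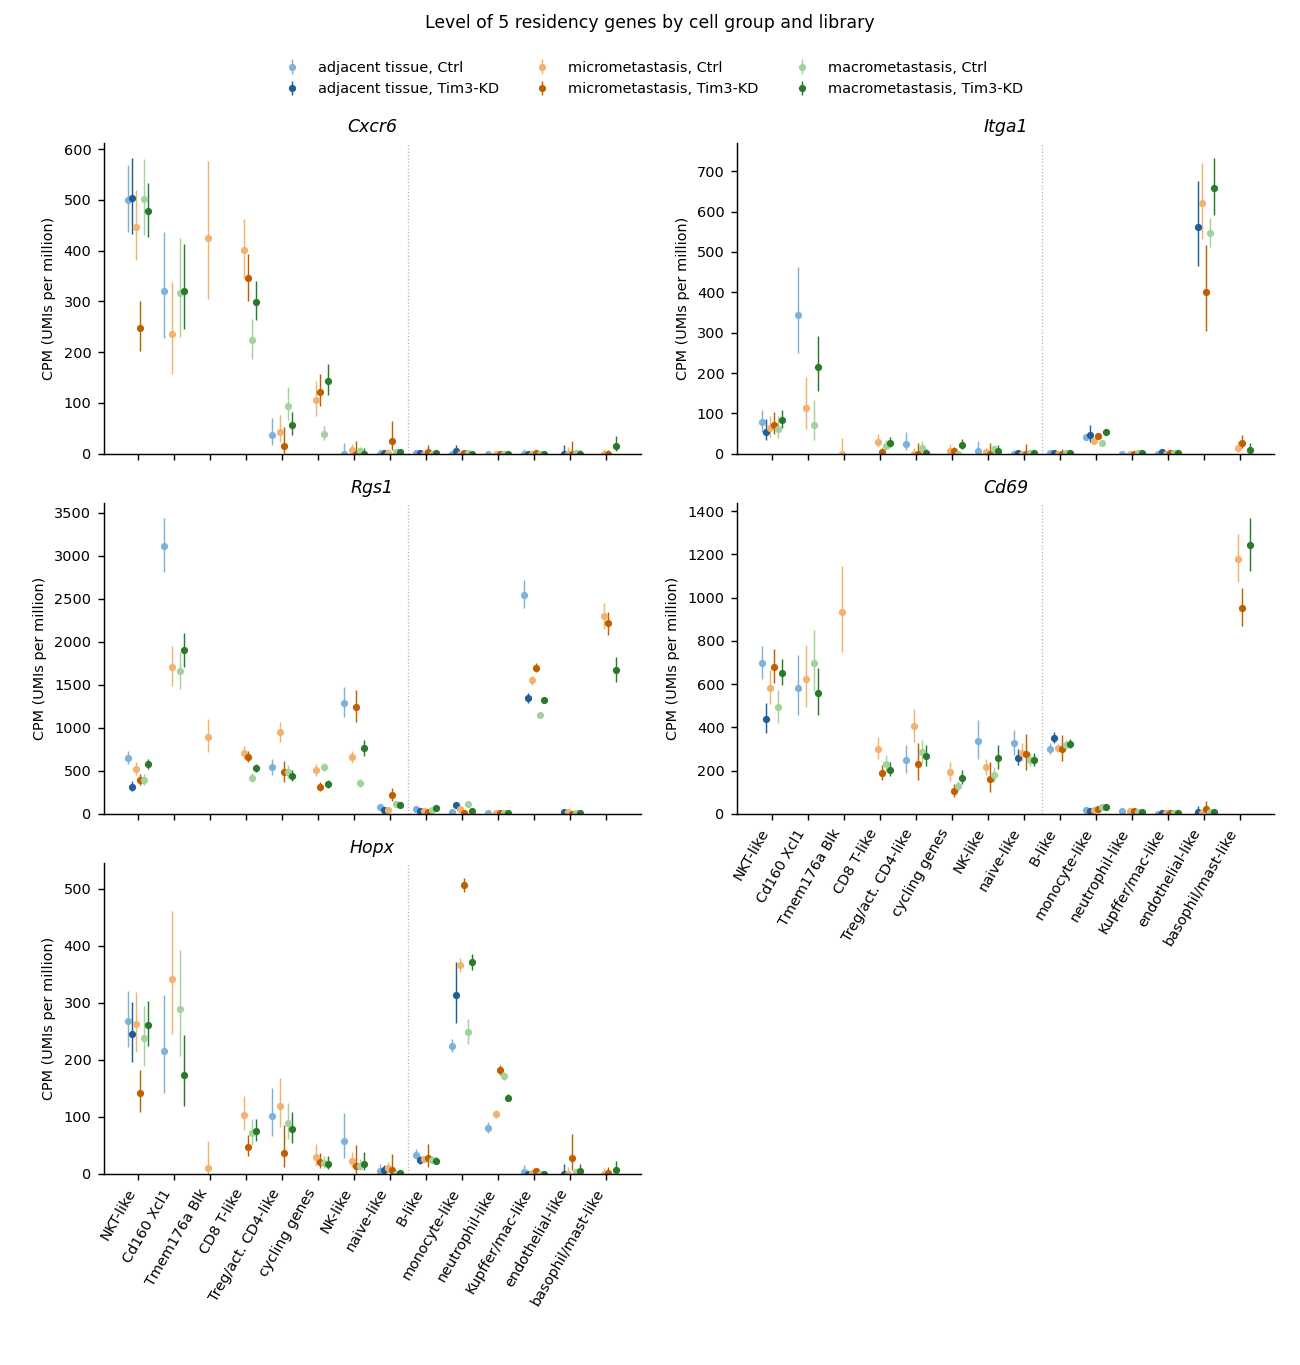
Level of each gene (y axis, CPM, linear scale) in T/NK clusters and cell classes, with a point for each library of at least 20 cells and counting-error bars of 95%. The NK-like and the naive-like points each pool a pair of clusters. In these pools Cxcr6 is at most 8.090 CPM in NK-like and 25.13 CPM in naive-like cells, whereas Rgs1 lies between 359.8 and 1289 CPM in NK-like cells.

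The members met in the same cells mainly within the NKT-like and Cd160 Xcl1 clusters. Each cell was thinned to 1500 UMIs, and no cell had fewer. At that depth 64.4% of T and NK cells had a UMI of at least 1 member, 26.6% of at least 2 and 8.19% of at least 3. The share with at least 3 was 35.1% in the Cd160 Xcl1 cluster, 22.1% in NKT-like, 14.1% in the Tmem176a Blk cluster and 10.9% in CD8 T-like cells. It was 0.504% in the larger NK-like cluster and 0.0436% in B-like cells, and in the naive-like clusters even a pair of members was found in only 2.1% and 7.11% of cells. By library the share over all T and NK cells was 13.8% against 4.38% for adjacent tissue, 8.7% against 7.54% for micrometastasis and 5.71% against 9.5% for macrometastasis. Within the NKT-like cluster alone, the same shares were 29.5% against 7.41%, 24.1% against 15% and 15.3% against 29.6%. Ctrl had the larger share in adjacent tissue and in micrometastasis, and Tim3-KD in macrometastasis, both over all T and NK cells and in the NKT-like cluster, of which adjacent tissue Tim3-KD held 27 cells.

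**Figure D3:**
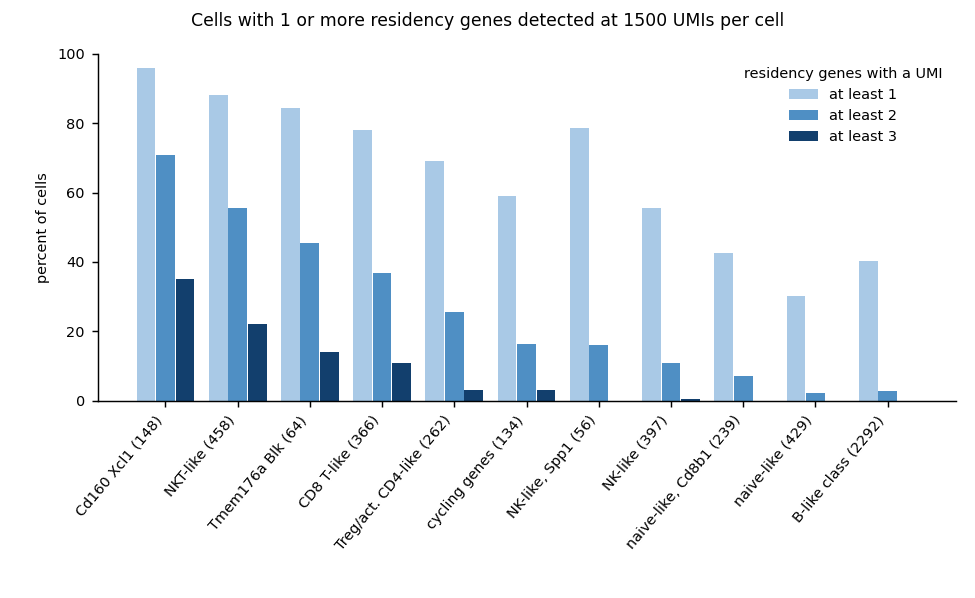
Percent of cells (y axis) by the number of member genes with a UMI after thinning to 1500 UMIs per cell, for T/NK clusters and the B-like class over all libraries. At least 3 members were found together in 35.1% of the Cd160 Xcl1 cluster and 22.1% of the NKT-like cluster.

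Cells with and without Cxcr6 differed more in the other members across all T and NK cells than inside the NKT-like cluster. Of the 430 thinned T and NK cells with Cxcr6, 19.5% also had Hopx, against 8.24% of the 2305 without it. For Itga1 the shares were 10.2% and 3.17%, for Rgs1 53.5% and 35.8%, and for Cd69 40.5% and 30.7%. The micrometastasis Tim3-KD library went the other way for 3 of these genes, with Hopx in 5.68% of its 88 cells with Cxcr6 and 8.39% of its 310 without, Itga1 in 3.41% and 3.55%, and Cd69 in 31.8% and 34.5%. Within the NKT-like cluster these gaps were small: Itga1 was found in 11.8% and 10.7%, Rgs1 in 43.8% and 45%, and Hopx in 29.2% and 25.4%. The Cd160 Xcl1 cluster had 48 thinned cells with Cxcr6 and 100 without. There Itga1 was found in 33.3% and 19.0%, Cd69 in 58.3% and 40.0% and Rgs1 in 87.5% and 78.0%. Hopx was alike, at 31.2% and 31.0%. Shares of cells are a description, since cells of a library are not replicates.

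Across the 29 T/NK clusters by library with at least 30 cells, the members differed in which genes followed them most closely. The measure was Pearson's r of log2(CPM + 10) over 1078 genes, and the points share libraries and cell types, so no p is given. Cxcr6 was most like Mdfic (r = 0.914), Cd226 (0.906), an adhesion and activating receptor, and Hopx (0.889). Hopx was most like Cxcr3 (0.911), a chemokine receptor of activated T cells, Bcl2a1b (0.891) and Cxcr6. Itga1 was nearest Gcnt2 (0.872), Ckb (0.865), the brain-type creatine kinase, and Gimap4 (0.856). Rgs1 stood nearer to Hilpda (0.917), a lipid droplet protein, Bhlhe40 (0.898), a transcription factor of activated T cells, and Atp2b4 (0.869) than to any other member. Cd69 was nearest Ifi208 (0.893), Gimap3 (0.884) and Ifi214 (0.830). Between members, r ran from 0.283 for Rgs1 and Cd69 to 0.889 for Cxcr6 and Hopx.

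Between Ctrl and Tim3-KD, the members in T and NK cells lay lower in Tim3-KD adjacent tissue and higher in Tim3-KD macrometastasis. In adjacent tissue, with 210 and 137 T and NK cells, Itga1 was 58.81 against 15.70 CPM. The Tim3-KD over Ctrl ratio was 0.267 (0.169 to 0.410), and it was 0.417 with the cluster mix held at that of Ctrl and 0.625 with T and NK cells called one at a time from their markers. Rgs1 was 731.0 against 358.4 CPM, a ratio of 0.490 (0.445 to 0.540). Hopx was 119.4 and 77.40 CPM (ratio 0.648, 0.518 to 0.809) and Cd69 425.5 and 332.6 (0.782, 0.7 to 0.873). Cxcr6 was 190.8 and 168.3 CPM, and the interval of its ratio, 0.882, spanned 1 (0.750 to 1.04). In all, 3 of 5 members were at least 1.5-fold lower in Tim3-KD, beside 31.5% of the 2099 genes measured there, and 0 were at least 1.5-fold higher, beside 10.7%. With the cluster mix held, the count of lower members was 1 of 5, since Rgs1 went to 0.706 and Hopx to 0.946, and Cxcr6 turned to 1.21. With cells called one at a time it was also 1 of 5, with Rgs1 at 1.02, Cd69 at 1.08, Hopx at 0.790 and Cxcr6 at 1.40. That call needed a UMI of at least 3 marker genes and none of a B cell marker. Of the 375 cells that it took in adjacent tissue, 316 were in the T/NK clusters. The T and NK cells of Tim3-KD had more UMIs per cell, with a median of 12462 against 7257.5 in Ctrl, and the median gene lay at a log2 ratio of -0.32. The members' median was -0.63.

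In micrometastasis, with 609 and 398 T and NK cells, Cxcr6 was higher in Tim3-KD, and Rgs1, Cd69 and Hopx were lower. Cxcr6 was 160.0 against 197.2 CPM, a ratio of 1.23 (1.08 to 1.41), which turned to 0.732 with the cluster mix held at that of Ctrl and to 0.883 with cells called one at a time. Hopx was 84.97 and 55.89 CPM, a ratio of 0.658 (0.527 to 0.818), the only member past 1.5-fold. That ratio was 0.436 with the mix held and turned to 1.08 with cells called one at a time. Lower in Tim3-KD was thus 1 of 5 members, beside 17.5% of 1776 genes, and higher 0 of 5, beside 8.33%. Rgs1 (574.5 and 527.1 CPM, ratio 0.918) and Cd69 (339.6 and 302.6, ratio 0.891) had intervals just under 1, and both ratios turned to 1.08 when each cell was given the same weight. They moved the other way, to 0.647 and 0.596, when T and NK cells were called one at a time from their markers. Without the T/NK clusters led by genes of another lineage, the interval of Rgs1 held 1 (0.930, 0.861 to 1.003). Itga1 (20.28 and 19.99 CPM, ratio 0.986) had an interval on both sides of 1, from 0.655 to 1.47.

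In macrometastasis, with 665 and 716 T and NK cells, all 5 members had intervals above 1. Itga1 was 14.53 and 29.46 CPM, a ratio of 2.03 (1.504 to 2.76). It was the 1 of 5 members at least 1.5-fold higher, beside 9.12% of 1788 genes, and 0 of 5 were at least 1.5-fold lower, beside 9.17%. Cxcr6 was 114.7 and 163.3 CPM (ratio 1.42, 1.27 to 1.59), Hopx 56.12 and 74.46 (1.33, 1.13 to 1.56), Cd69 255.3 and 315.0 (1.23, 1.14 to 1.33) and Rgs1 406.9 and 462.7 (1.14, 1.07 to 1.21). With the cluster mix held at that of Ctrl, Hopx turned to 0.910, and Cxcr6 and Cd69 were both at 1.09. With cells called one at a time all 5 ratios stayed above 1, from 1.18 for Rgs1 to 1.94 for Itga1. The median over all genes was a log2 ratio of 0.03 and that of the members 0.41. Depth was alike here, with medians of 5101 and 5364.5 UMIs per cell.

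**Figure D4:**
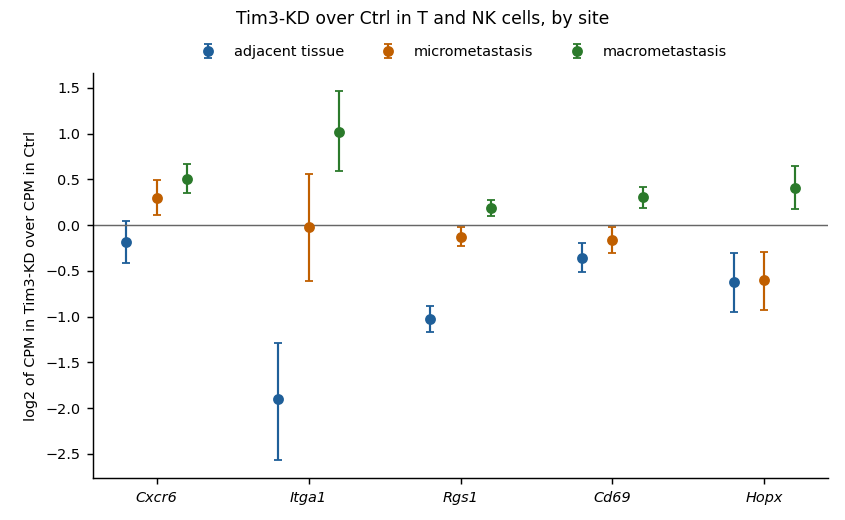
Tim3-KD over Ctrl level in T and NK cells (y axis, log2 ratio) for each member and site, with 95% counting-error bars. Of the 15 ratios, those of adjacent tissue lie below 0 and those of macrometastasis above it.

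The mix of T and NK cells differed between the libraries of each site. NKT-like cells made up 29.0% against 19.7% of T and NK cells in adjacent tissue, 13% against 26.9% in micrometastasis and 8.87% against 17.5% in macrometastasis. CD8 T-like cells were 13.5% against 29.4% in micrometastasis. The larger NK-like cluster, low in Cxcr6, Itga1 and Hopx, was 9.05% against 5.84% in adjacent tissue, 25.1% against 2.01% in micrometastasis and 23.8% against 7.12% in macrometastasis. Without the NK-like class, T-like cells alone had a Cxcr6 ratio of 0.819 (0.697 to 0.963) in adjacent tissue, 1.08 (0.948 to 1.23) in micrometastasis and 1.23 (1.1 to 1.38) in macrometastasis. Their Hopx ratio was 0.605 (0.481 to 0.759), 0.580 (0.461 to 0.726) and 1.17 (0.99 to 1.38) at these sites. In T-like cells the interval of Cxcr6 in micrometastasis and that of Hopx in macrometastasis thus held 1, and that of Cxcr6 in adjacent tissue did not.

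Inside the NKT-like cluster alone, each site had its own pattern. In micrometastasis Cxcr6 (ratio 0.554, 0.430 to 0.712) and Hopx (0.540, 0.384 to 0.752) were lower in Tim3-KD, together with Rgs1 (0.755, 0.610 to 0.932), while Cd69 was not (1.17, 0.975 to 1.40). In adjacent tissue the lower genes were Rgs1 (0.486, 0.388 to 0.604) and Cd69 (0.631, 0.519 to 0.766). Cxcr6 (1.01) and Hopx (0.914) had intervals that spanned 1 there. In macrometastasis Rgs1 (1.49, 1.22 to 1.81) and Cd69 (1.33, 1.11 to 1.59) were higher in Tim3-KD, with Cxcr6 at 0.954 and Hopx at 1.1 and both intervals spanning 1. Itga1 had 20 to 57 UMIs per library in these cells, and a difference was not detectable at this depth at any site. The adjacent tissue Tim3-KD library held 27 of these cells. The summed level of 11 early response and stress genes, such as Fos and Egr1, which tissue digestion can raise, was 4440 against 5290 CPM in adjacent tissue, 2330 against 3510 CPM in micrometastasis and 2450 against 3630 CPM in macrometastasis. It was higher in Tim3-KD at each site, and its part in the Rgs1 and Cd69 values was not tested.

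**Figure D5:**
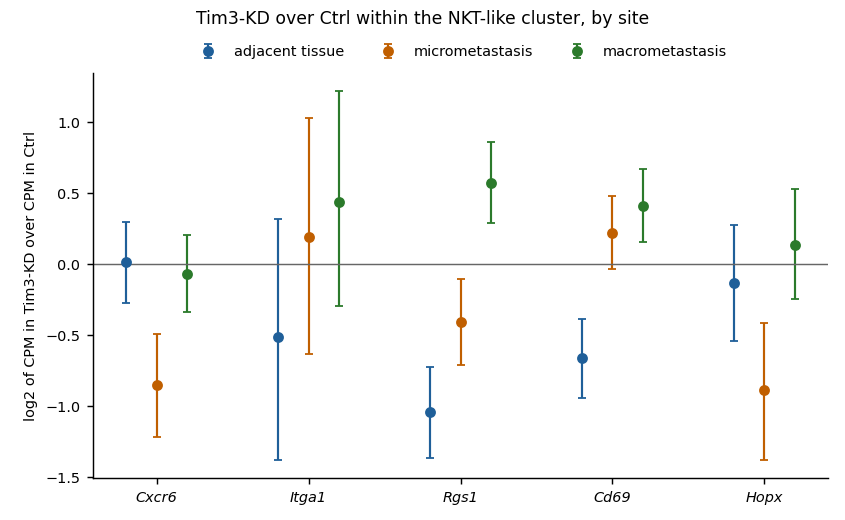
Tim3-KD over Ctrl level within the NKT-like cluster (y axis, log2 ratio) for each member and site, with 95% counting-error bars. Cxcr6, Hopx and Rgs1 lie below 0 in micrometastasis, and Rgs1 and Cd69 lie below 0 in adjacent tissue and above it in macrometastasis.

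Other T/NK clusters had enough cells for some comparisons, and every ratio whose interval left out 1 is given here. In the CD8 T-like cluster of micrometastasis Hopx was 102.8 against 47.50 CPM (ratio 0.462, 0.283 to 0.742), Cd69 300.1 and 186.8 (0.623, 0.484 to 0.800) and Itga1 29.38 and 4.750, from 14 and 3 UMIs (0.162, 0.0298 to 0.579). In the same cluster of macrometastasis Cxcr6 was 224.0 and 299.4 CPM (1.34, 1.08 to 1.66) and Rgs1 419.1 and 531.8 (1.27, 1.08 to 1.49). The Cd160 Xcl1 cluster of macrometastasis had higher Itga1 in Tim3-KD (ratio 2.99, 1.47 to 6.70) and lower Hopx (0.602, 0.368 to 0.979), with Cxcr6 at 1.01. In the larger NK-like cluster of macrometastasis Rgs1 was 361.0 and 759.3 CPM (2.10, 1.71 to 2.58) and Cd69 183.0 and 280.9 (1.54, 1.11 to 2.11). The regulatory or activated CD4 T-like cluster of micrometastasis was lower in Tim3-KD for Hopx (0.311, 0.0948 to 0.802), Rgs1 (0.509, 0.382 to 0.670) and Cd69 (0.568, 0.369 to 0.852). The cluster led by cell cycle genes had lower Rgs1 in Tim3-KD both in micrometastasis (0.622, 0.5003 to 0.773) and in macrometastasis (0.638, 0.541 to 0.751), the opposite direction from the NK-like and CD8 T-like cells of macrometastasis. Its Cd69 was lower in micrometastasis (0.552, 0.379 to 0.798) and higher in macrometastasis (1.32, 1.005 to 1.74). In macrometastasis it also had higher Cxcr6 (3.63, 2.43 to 5.53), and Itga1 went from 0 UMIs in 43 cells to 14 UMIs in 29 cells. In the larger naive-like cluster Cd69 was lower in adjacent tissue (0.656, 0.478 to 0.902) and Rgs1 higher in micrometastasis (3.44, 1.66 to 6.98). The cluster led by B cell genes had lower Cxcr6 in macrometastasis (0.570, 0.361 to 0.906).

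A wider list of residency genes gave the setting for the members, though the list was not particular to the cells with Cxcr6. Over all libraries, the summed level of the 24 list genes held by every matrix was 4060 CPM in the NKT-like cluster. It was 8030 CPM in the Cd160 Xcl1 cluster and 5100 in the larger NK-like cluster, which was low in Cxcr6, Itga1 and Hopx. Of the list's 24 measured genes in T and NK cells of adjacent tissue, 18 were at least 1.5-fold lower in Tim3-KD and 0 higher, with a median log2 ratio of -0.82, beside 31.5% and 10.7% of all genes measured there and their median of -0.32. They included Rgs2 (ratio 0.355), a relative of Rgs1, Xcl1 (0.642), a chemokine for cross-presenting dendritic cells, and Il2rb (0.599), the IL-2 and IL-15 receptor chain. In micrometastasis 5 of 28 were lower and 2 higher (median -0.10), close to the 17.5% and 8.33% of all genes. In macrometastasis 3 of 24 were lower and 3 higher (median 0.12), beside 9.17% and 9.12%. The same shares of all genes stand beside the counts of the lists that follow. Genes of recirculating cells in adjacent tissue showed 3 of 12 higher and 0 lower, Klf2 among them (206 and 437 CPM). In micrometastasis 8 of 11 recirculation genes were lower in Tim3-KD and 1 higher (median -0.78), with Satb1 at 0.584 and Il7r at 0.604, and in macrometastasis 2 of 13 were lower and 0 higher. Among measured partners of the members, 2 of 5 were higher in adjacent tissue, 1 of 5 lower in micrometastasis and 0 of 3 past 1.5-fold in macrometastasis. Itgb1, the chain that pairs with Itga1, was 104 and 237 CPM in adjacent tissue, opposite to Itga1. Of the early response and stress genes, 3 of 13 were higher and 4 lower in adjacent tissue, 4 of 13 higher and 1 lower in micrometastasis, and 4 of 11 higher and 1 lower in macrometastasis. Naive-like cells, which have the recirculation genes, were 17.1% and 30.7% of adjacent tissue T and NK cells for the larger cluster and 16.4% and 6.78% in micrometastasis.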

How the data were processed

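CD45+ cells from liver pieces were profiled with 10x Genomics 3' v3.1 chemistry in 6 libraries, each a pool of mice. The authors trimmed reads with Trim Galore 0.4.3, mapped them with STAR 2.7.7a to GRCm38 (Ensembl 102), counted UMIs over exons and introns, filtered cells, removed doublets with scrublet and kept variable genes. The deposited values were scaled scores capped at 10, made separately for each site. A count design had been planned, so the scores were inverted to UMIs along the line that cells without a UMI form for each gene. Of the recovered values, 99.9971% to 99.9999% were within 0.05 of a whole number. On simulated scores of 4485 genes in 2345 cells the inversion returned 100% of UMIs. Capped scores give lower bounds.

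Cells were clustered on 1636 shared genes without the members (30 components, 15 neighbours, Leiden resolution 1, seed 1, leidenalg 0.10.2), which gave 26 clusters, 24 of them named from marker lists. T and NK cells were clustered again. A name needed 3 markers at least 2-fold higher. Levels have exact Poisson, shares exact binomial and ratios exact conditional 95% intervals. Levels by group used at least 20 cells, ratios of all genes at least 50 UMIs. The genes named beside the members were the 3 most alike to each by Pearson's r and fixed lists of residency, recirculation, partner and early response genes. The members and lists were chosen with earlier results of these data known, and 1 further gene of the set is not reported here. The alternatives are given in the closing section. A doublet score was computed per library, and cells over 0.15 were left out only in an alternative. Promoter sequences are from RefSeq tables, gene positions from GENCODE M21. Python 3.11.15, NumPy 2.4.6 and SciPy 1.17.1 were used.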

Additional observations from a re-analysis of the deposited data

Results flagged for a closer look

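For 4 members the Tim3-KD over Ctrl ratio in T and NK cells lay on opposite sides of 1 at different sites, with counting-error intervals that did not include 1. Itga1 was at 0.267 in adjacent tissue and 2.03 in macrometastasis. Rgs1 was at 0.490 in adjacent tissue and 0.918 in micrometastasis, against 1.14 in macrometastasis. Cd69 was at 0.782 and 0.891, against 1.23. Hopx was at 0.648 and 0.658, against 1.33. The difference between sites was not tested, because each group was 1 library, and day, site and mice cannot be told apart. The share of NKT-like cells among T and NK cells was lower in Tim3-KD in adjacent tissue (29.0% and 19.7%) and higher in macrometastasis (8.87% and 17.5%). It was also higher in Tim3-KD in micrometastasis (13% and 26.9%), where Rgs1, Cd69 and Hopx were lower. With the cluster mix held at that of Ctrl, Hopx of macrometastasis was at 0.910, and the ratios of Itga1 and Rgs1 in adjacent tissue were still below 1. With T and NK cells called one at a time from their markers, Rgs1 and Cd69 of adjacent tissue were at 1.02 and 1.08 and Hopx of micrometastasis at 1.08, and with each cell given the same weight Rgs1 and Cd69 of micrometastasis were both at 1.08, so these no longer lay below 1. With cells called one at a time, Rgs1 and Cd69 of micrometastasis lay further below 1, at 0.647 and 0.596.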

How the results depend on the processing

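Of 120 alternative values of the 15 ratios, 92 stayed within the counting interval of the value reported, 9 passed to the other side of 1 where that interval left out 1, and the other 19 moved beyond it. A further 6 values passed to the other side of 1 for Cxcr6 of adjacent tissue and Itga1 of micrometastasis, whose intervals held 1. All 15 stayed within it with doublet scores over 0.15 left out, with the members in the clustering, and without the T/NK clusters led by genes of another lineage, the last 2 of which were added after the data were seen. Without those clusters, the interval of Rgs1 in micrometastasis came to hold 1 (0.930, 0.861 to 1.003). That of Cxcr6 in adjacent tissue no longer held 1 (0.848, 0.721 to 0.996). Leaving out cells under 3000 UMIs moved only Rgs1 of micrometastasis, to 0.841. Calling T and NK cells singly from 18 marker genes gave, in adjacent tissue, 0.625 for Itga1, 1.02 for Rgs1, 1.08 for Cd69 and 1.40 for Cxcr6, and in micrometastasis 0.596 for Cd69, 0.647 for Rgs1, 0.883 for Cxcr6 and 1.08 for Hopx. Holding the cluster mix at that of Ctrl gave, in adjacent tissue, 0.417 for Itga1, 0.706 for Rgs1, 0.946 for Hopx and 1.21 for Cxcr6. In micrometastasis it gave 0.436 for Hopx, 0.732 for Cxcr6 and 0.844 for Rgs1, and in macrometastasis 0.910 for Hopx and 1.09 for both Cd69 and Cxcr6. The mean over cells gave, in micrometastasis, 0.846 for Hopx, 1.08 for both Cd69 and Rgs1 and 1.46 for Cxcr6, and in macrometastasis 1.33 for Rgs1. Scaling by the trimmed mean, a log2 shift of -0.31 in adjacent tissue, gave 0.609 for Rgs1, 0.971 for Cd69 and 1.095 for Cxcr6 there, and 1.00 for Rgs1 in micrometastasis. The cause of these shifts was not tested. All 30 levels stayed within their intervals with the members in the clustering, and all 30 shares moved without thinning. No paired analysis was possible because each group was 1 library, and no library could be left out. Depth limits Itga1 most, with 28 UMIs in the T and NK cells of adjacent tissue Tim3-KD.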

Other observations

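Outside T and NK cells, Hopx in the monocyte-like class was higher in Tim3-KD at every site. Ctrl against Tim3-KD it was 224.7 against 314.4 CPM in adjacent tissue (ratio 1.40, 95% counting-error interval 1.17 to 1.67, with 20 cells in Tim3-KD), 365.8 against 506.2 CPM in micrometastasis (1.38, 1.33 to 1.44) and 249.4 against 370.7 CPM in macrometastasis (1.49, 1.35 to 1.64). The class joined clusters that were unequally filled: a cluster led by F13a1 and Ass1 held 100 against 0 of these cells in adjacent tissue, 97 against 382 in micrometastasis and 6 against 122 in macrometastasis. Ratios within clusters were added after the data were seen, for clusters with at least 20 cells in both libraries. In the largest monocyte-like cluster Hopx was 408.7 against 906.6 CPM in micrometastasis (2.22, 2.10 to 2.34) and 259.1 against 572.5 CPM in macrometastasis (2.21, 1.98 to 2.47), and in the F13a1 Ass1 cluster of micrometastasis 271.3 and 364.8 (1.345, 1.24 to 1.46). Adjacent tissue allowed no ratio within a cluster. Over the class, Itga1 was 42.41 and 45.90 CPM in adjacent tissue (1.08, 0.652 to 1.70), 30.33 and 44.87 in micrometastasis (1.48, 1.28 to 1.71) and 26.69 and 52.98 in macrometastasis (1.99, 1.49 to 2.68). Within the largest cluster its ratios were 0.870 in micrometastasis and 1.24 in macrometastasis, and within the F13a1 Ass1 cluster of micrometastasis 1.085, all with intervals that spanned 1. Rgs1 over the class was 26.54 against 101.0 CPM in adjacent tissue, 59.41 against 9.757 CPM in micrometastasis and 109.2 against 28.14 CPM in macrometastasis. It was also lower in Tim3-KD within the largest cluster, at 0.271 (interval 0.210 to 0.344) for micrometastasis and 0.512 (interval 0.410 to 0.639) for macrometastasis, and within the F13a1 Ass1 cluster of micrometastasis (0.319, 0.211 to 0.484).

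In the Kupffer or macrophage-like class, Rgs1 was 2547 CPM in Ctrl and 1350 in Tim3-KD of adjacent tissue (ratio 0.530, 0.491 to 0.573), with 31 Ctrl cells, while the ratio was 1.09 in micrometastasis and 1.15 in macrometastasis. The class joined 2 clusters, the larger of which held 22 Ctrl against 50 Tim3-KD cells of adjacent tissue, 213 against 251 of micrometastasis and 738 against 753 of macrometastasis. Within it the Rgs1 ratio was 0.657 (0.608 to 0.710) in adjacent tissue, 0.969 (0.926 to 1.01) in micrometastasis and 1.21 (1.17 to 1.24) in macrometastasis. Across 89 cell classes and T/NK clusters by library, Cxcr6 was most like Cd160 (r = 0.906), Ifng (0.896) and Cd226 (0.888), and Cd69 like Tespa1 (0.931), Ptprcap (0.919) and Rasal3 (0.904). Itga1 was most like the endothelial genes Fabp4 (0.810) and Cd300lg (0.805), with Lpar6 (0.805). Rgs1 was nearest AW112010 (0.769), Pld3 (0.751) and Nrip1 (0.726), and Hopx nearest Chil3 (0.599), Susd3 (0.593) and Slfn1 (0.577).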
